A study of Mus musculus with 16 samples.

Results

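Transcript levels of 8 regulators of the proximal tubule and of mitochondrial gene expression were followed in mouse kidney. They are the nuclear receptors Hnf4a, Hnf4g, Esrra and Esrrg, the coactivators Ppargc1a and Ppargc1b, the transcription factor Nrf1 and the mitochondrial DNA-binding factor Tfam. The genes were chosen by name, and all 8 of the 8 were found among 52338 genes in the count table and had enough reads to be tested. The RNA came from kidneys of C57BL6 mice given FAN or vehicle and sampled on day 15, all eating a high-fat diet, which was offered ad libitum to some and time-restricted to others. FAN is left as an abbreviation in the labels, and the columns of the table are named with the word folic. Each of the 4 groups (FAN ad libitum, FAN time-restricted, vehicle ad libitum, vehicle time-restricted) had 4 libraries from whole kidney, and the high-fat diet was shared by all of them. Sex and age are not given in the sources used here, and the labels list separate samples without saying that they are separate animals, so p-values measure the spread between these samples.

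HNF4A is a nuclear receptor that maintains the differentiated program of proximal tubule cells, including transporters and gluconeogenic enzymes, and HNF4G is its close relative. PGC-1 coactivators bind estrogen-related receptors (ERR) and nuclear respiratory factor, and together these drive nuclear genes of oxidative metabolism. TFAM, whose gene is a known target of nuclear respiratory factor and of ETS-family factors, packages mitochondrial DNA and starts its transcription, and the proximal tubule is rich in mitochondria.

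Promoter sequence is shown for Esrra and Tfam, 2 of the 3 genes that passed the test both between FAN and vehicle under ad libitum feeding and between feeding regimens in FAN. The window of Hnf4a, the other of the 3, is not shown here. Sequences are RefSeq windows of the GRCm38.p6 build, 5′ to 3′ on the gene's strand, and 6 of the 8 genes matched 11 windows. Capitals mark motifs found by letter match on both strands. In the Esrra window (chr19:6921814-6922058, minus strand) they mark TGCGCA, a part of the nuclear respiratory factor site, 31 bases upstream of the start. In Tfam (chr10:71238073-71238102, minus strand, within an annotated exon) they mark the ETS site CCGGAAGT.
Esrra: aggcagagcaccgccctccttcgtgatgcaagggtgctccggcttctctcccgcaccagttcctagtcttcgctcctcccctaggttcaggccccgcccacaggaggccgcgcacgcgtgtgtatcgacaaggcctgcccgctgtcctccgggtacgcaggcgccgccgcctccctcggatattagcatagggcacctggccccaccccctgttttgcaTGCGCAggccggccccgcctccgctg
Tfam: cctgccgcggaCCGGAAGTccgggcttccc
Of 32851 promoter windows of 300 bases in the table, 7.76% held TGCGCA and 3.89% held CCGGAAGT, so these matches describe letters and no measured binding. The full palindromic core of the nuclear respiratory factor site (0.971% of windows), the ERR element AAGGTCA (4.72%) and the HNF4 site AAAGTCCA (1.25%) had no match in the windows of the 6 genes. A Ppargc1a window held TGACG, a part of the cyclic AMP response element, as did 20.8% of windows.

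Library totals ranged from 12450812 to 33976660 counts, and a count of 0 allowed up to 0.0883 to 0.241 counts per 1000000 (CPM, counting error only). Levels are CPM scaled by edgeR's TMM factors, which ran from 0.816 to 1.53. Scaling by total counts instead shifted the median log2 change of all genes from 0.06 to 0.76 for FAN against vehicle under ad libitum feeding from −0.02 to −0.67 for the feeding regimens compared within FAN and from 0.02 to −0.57 for the difference of FAN effects. Values under total-count scaling are therefore also given relative to the median of all genes. A change of scaling moves all genes of a comparison by nearly the same amount. These relative values therefore come close to the TMM values by construction, and they do not show which scaling is right. The S numbers in the column names, taken here as sheet positions, fall into 3 runs of neighbouring numbers. These are called earliest, middle and latest by number only, as the column names give no date or sequencing batch. Both treatments share the earliest run, while the middle run holds vehicle libraries and the latest run FAN libraries, so outside the earliest run position and treatment cannot be told apart.

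**Figure D1:**
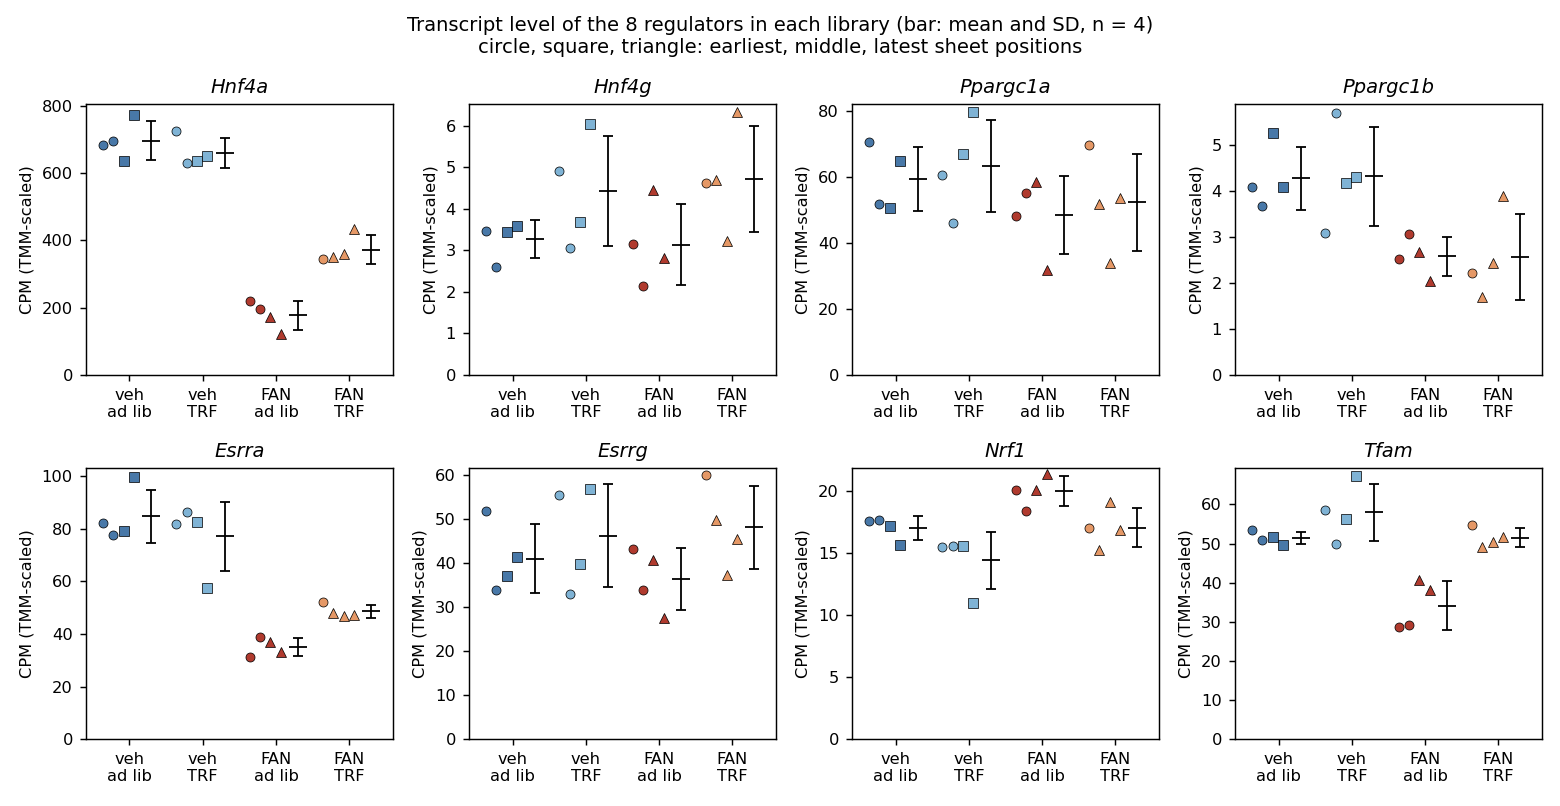
TMM-scaled CPM (vertical axis, from 0) of each of the 8 genes in the 16 libraries, by group, with the mean and SD of 4 libraries as a bar and the run of sheet positions as the symbol. Hnf4a and Esrra lie lower in all 8 FAN libraries than in their vehicle counterparts, while Hnf4g, Ppargc1a and Esrrg overlap between all groups.

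Per kilobase of merged exon, Hnf4a was the most abundant of the 8 in every group, at 144 ± 11.9 CPM per kb (SD, n = 4) in vehicle ad libitum kidneys. Esrra followed at 19.3 ± 2.31, Tfam at 11.6 ± 0.347 and Ppargc1a at 9.02 ± 1.49 CPM per kb. Esrrg was at 6.61 ± 1.26, Nrf1 at 1.66 ± 0.0923, Hnf4g at 1.25 ± 0.175 and Ppargc1b at 1.07 ± 0.172 CPM per kb. In that group only Ppargc1a with Esrrg and Hnf4g with Ppargc1b overlapped among neighbours in this order. In FAN ad libitum kidneys Esrra (7.99 ± 0.803), Tfam (7.70 ± 1.40), Ppargc1a (7.35 ± 1.80) and Esrrg (5.85 ± 1.13 CPM per kb) each overlapped with the next.

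With FAN under ad libitum feeding 4 of the 8 genes fell (Hnf4a, Esrra, Tfam, Ppargc1b) and none rose by edgeR's quasi-likelihood test at an adjusted p under 0.05, where 60.7% of all genes tested were called and 28.6% fell. The libraries of these 4 lay below the vehicle libraries without overlap, as for 25.9% of all genes, and those of Nrf1 above, as for 29%. The median log2 change of the 8 was −0.44, against 0.06 over all genes. Under time-restricted feeding 3 of the 8 fell (Hnf4a, Esrra, Ppargc1b), where 43.5% of all genes were called and 19% fell, with a median of −0.22 against 0.05. Hnf4a and Esrra lay below without overlap there, as did 17.9% of all genes. Time-restricted feeding in FAN raised 3 of the 8 (Hnf4a, Esrra, Tfam), where 31.8% were called and 17.9% rose, with a median of 0.44 against −0.02. These 3 lay above without overlap, as did 15.7% of all genes. This comparison shares the FAN ad libitum libraries with the first. The test of the difference in FAN effects called 2 of the 8 (Hnf4a, Esrra), both positive, where 9.16% of all genes were called and 7.76% were positive. With total-count scaling the counts over the 8 genes were 3 higher and 2 lower for FAN under ad libitum feeding, and 1 higher and 3 lower under time-restricted feeding. They were 1 higher (Hnf4a) and 3 lower (Nrf1, Ppargc1a, Ppargc1b) for feeding in FAN, and 1 lower (Nrf1) for the difference of FAN effects. Of all 17731 genes, total-count scaling called 12893 for FAN under ad libitum feeding (10823 higher) and 7520 under time-restricted feeding (5055 higher). It called 11502 for feeding in FAN (990 higher) and 6631 for the difference of FAN effects (504 higher).

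In vehicle mice time-restricted feeding changed none of the 8 genes, and 0% of 17731 genes passed edgeR's test, with 1143 genes but none of the 8 at an unadjusted p under 0.05. DESeq2 called 57 genes and limma with voom sample weights 35, none of them among the 8. The log2 differences of the 8 ran from −0.24 for Nrf1 to 0.42 for Hnf4g (95% interval −0.13 to 0.97). Nrf1 was the only 1 of the 8 whose vehicle groups did not overlap, at 11 to 15.6 CPM under time-restricted and 15.6 to 17.7 CPM under ad libitum feeding with almost no gap between them, where 4.85% of all genes did not overlap and 2% lay below.

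**Figure D2:**
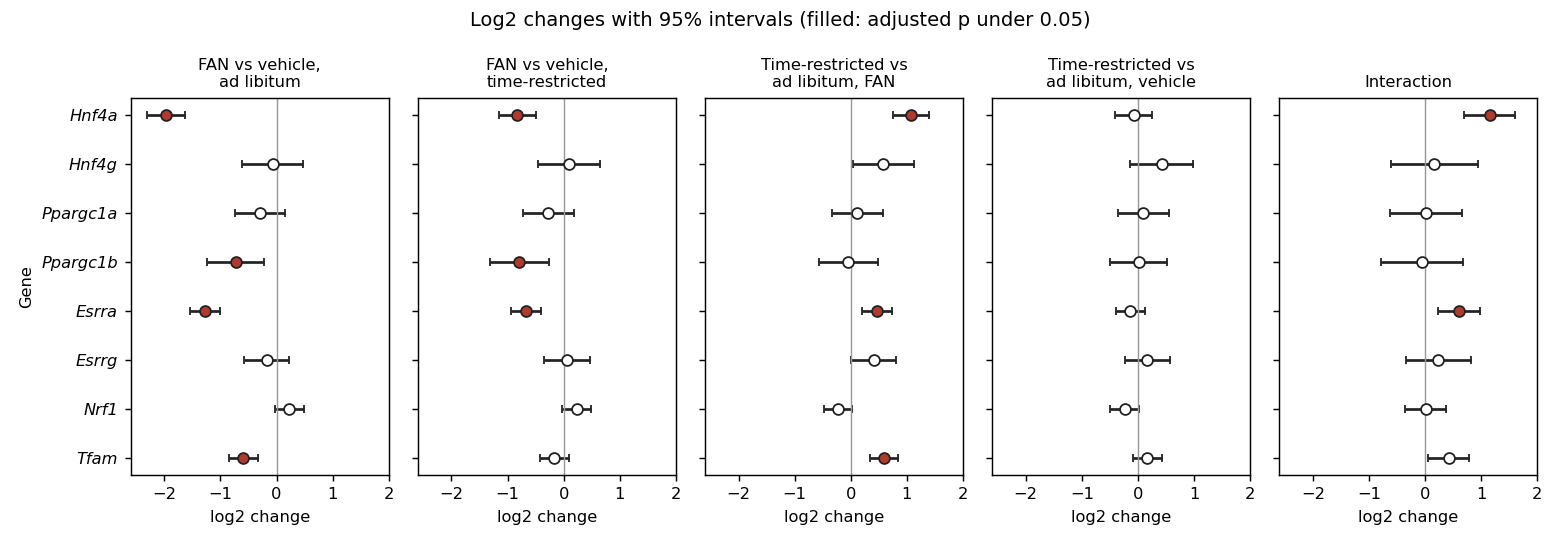
Log2 changes of the 8 genes (horizontal axis) with 95% intervals in the 4 comparisons and for the difference of FAN effects between regimens, from edgeR's quasi-likelihood fit; filled points have an adjusted p under 0.05. The points of Hnf4a run from −1.98 to 1.15, and no point is filled for feeding in vehicle mice.

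Hnf4a (ENSMUSG00000017950, GRCm38 chromosome 2, 163506808 to 163572910, plus strand) measured 682, 694, 635 and 774 CPM in vehicle ad libitum libraries 1 to 4 and 725, 629, 636 and 651 CPM in vehicle time-restricted libraries 1 to 4. It measured 220, 195, 172 and 121 CPM in FAN ad libitum libraries 6, 7, 10 and 12, and 345, 350, 360 and 435 CPM in FAN time-restricted libraries 6, 10, 11 and 12. FAN libraries are named by the number in their column. The 3 levels did not overlap: every FAN ad libitum library lay below every FAN time-restricted library, and all of these below every vehicle library. Hnf4a fell with FAN to 0.254 times the vehicle level under ad libitum feeding (log2 change −1.98 ± 0.16 SE, edgeR quasi-likelihood adjusted p = 9.46e-09). Under time-restricted feeding it fell to 0.565 times (log2 change −0.82 ± 0.16, adjusted p = 0.000349 by the same edgeR test). Within FAN it was 2.10-fold higher under time-restricted feeding (log2 change 1.07 ± 0.16, adjusted p = 5.66e-05 by edgeR). The test of whether the FAN effect differed between regimens gave a log2 difference of 1.15 ± 0.22 (adjusted p = 0.00247 by edgeR). With total-count scaling it was 0.55 (adjusted p = 0.0505 by edgeR), which relative to the median of all genes was 1.12, against 1.13 with TMM. The call was also lost among the earliest sheet positions alone, where the value for Hnf4a was 0.73 (adjusted p = 0.0878 by edgeR). The earliest positions hold 1 FAN time-restricted library, which such fits assume to vary like the other groups.

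Proximal tubule marker genes moved with Hnf4a. The summed level of 18 markers, which include the endocytic receptor gene Lrp2 and the phosphate transporter gene Slc34a1, ranged in vehicle libraries from 26224 to 29828 CPM under ad libitum and from 27467 to 34393 CPM under time-restricted feeding. In FAN libraries it ranged from 3800 to 7062 CPM under ad libitum and from 15745 to 20502 CPM under time-restricted feeding. Of the 18 markers 15 fell with FAN under ad libitum feeding and 14 under time-restricted feeding, 16 were higher with time-restricted feeding in FAN, and none of the 18 was at 0. Over all genes 28.6% fell with FAN under ad libitum and 19% under time-restricted feeding, and 17.9% were higher with feeding in FAN. In whole kidney, fewer cells of a type and less RNA per cell cannot be told apart, and the part of tubule content in the Hnf4a values was not tested.

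The ratio of Hnf4a to these markers depends on no library scaling. Per 1000 summed marker CPM, vehicle kidneys had 24.9 ± 1.5 Hnf4a CPM under ad libitum and 21.4 ± 1.09 under time-restricted feeding (SD, n = 4). FAN kidneys had 33.1 ± 2.53 under ad libitum and 21.6 ± 0.985 under time-restricted feeding. The 4 FAN ad libitum libraries (31.2 to 36.8) lay above the other 12 (20.3 to 26.5), so Hnf4a was high relative to the marker sum where both were lowest. The vehicle groups did not overlap in this ratio either, at 23.5 to 26.5 under ad libitum and 20.3 to 22.9 under time-restricted feeding. The markers share 7 genes with the list of known HNF4A-dependent genes described below.

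Hnf4g (ENSMUSG00000017688, chromosome 3, 3508030 to 3658052, plus strand) encodes the closest relative of HNF4A and lay between 2.13 and 6.32 CPM in all 16 libraries, and its groups overlapped in every comparison. Its log2 change with FAN was −0.07 (95% interval −0.62 to 0.48) under ad libitum and 0.09 (−0.46 to 0.64) under time-restricted feeding. Within FAN, time-restricted feeding gave a log2 difference of 0.58 (0.04 to 1.13, adjusted p = 0.0962 by edgeR), which did not pass. Leaving out FAN ad libitum 10 (0.79, adjusted p = 0.0272 by edgeR) or FAN time-restricted 11 (0.72, adjusted p = 0.0497) turned Hnf4g into a call. So did limma with voom sample weights on all libraries (0.75, adjusted p = 0.00513 by limma). Per kilobase, Hnf4a exceeded Hnf4g by 100 to 146-fold in vehicle ad libitum libraries and by 58.8 to 112-fold in vehicle time-restricted ones. The ratio was 21 to 49.8 with FAN under ad libitum and 37.5 to 60.9 with FAN under time-restricted feeding, lower than in vehicle, with overlap only between the time-restricted groups.

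**Figure D3:**
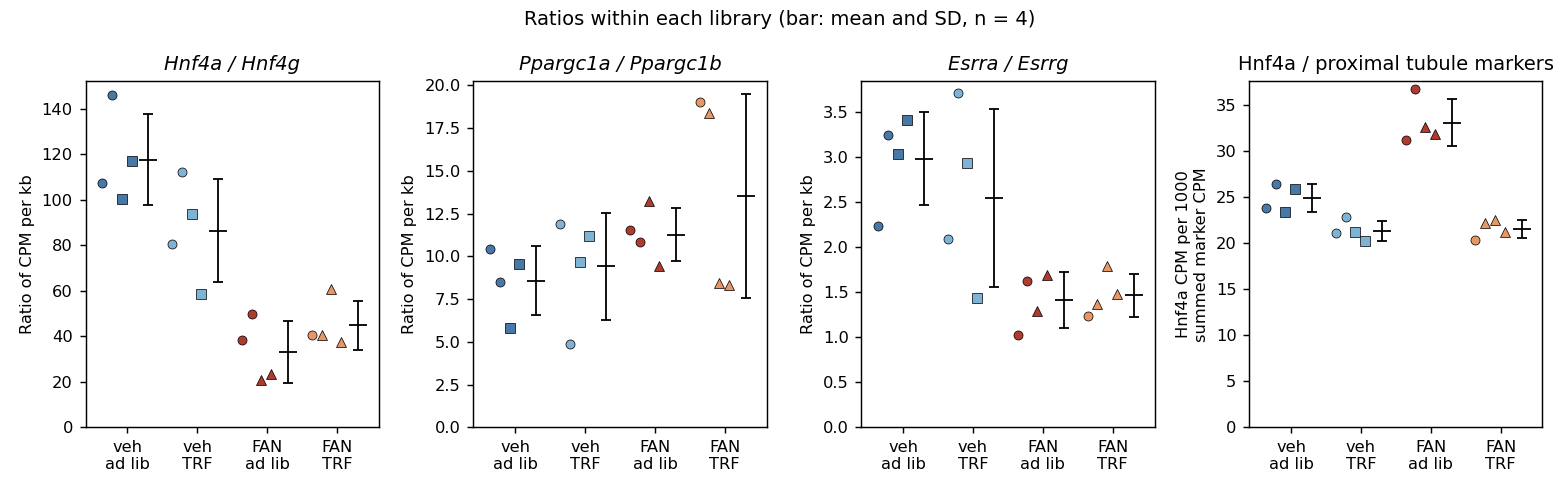
Ratios within each library by group: CPM per kb of Hnf4a over Hnf4g, Ppargc1a over Ppargc1b and Esrra over Esrrg, and Hnf4a CPM per 1000 summed CPM of 18 proximal tubule markers (vertical axes from 0, bars are mean and SD of 4 libraries, symbols as the sheet position runs). The Esrra to Esrrg ratio is 1.03 to 1.69 in FAN ad libitum and 2.24 to 3.41 in vehicle ad libitum libraries.

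Ppargc1a (ENSMUSG00000029167, chromosome 5, 51454250 to 51567726, minus strand) encodes PGC-1 alpha, the inducible coactivator of mitochondrial biogenesis. It measured 48.2, 55.1, 58.5 and 31.8 CPM in FAN ad libitum libraries 6, 7, 10 and 12 and 70.5, 51.8, 50.6 and 64.8 CPM in vehicle ad libitum libraries 1 to 4. These overlapped, as did the time-restricted groups, at 34.0 to 69.8 CPM in FAN and 46.2 to 79.8 CPM in vehicle. The log2 change with FAN was −0.30 (95% interval −0.75 to 0.16, adjusted p = 0.248 by edgeR) under ad libitum feeding and −0.28 (−0.73 to 0.18, adjusted p = 0.325 by edgeR) under time-restricted feeding. Neither passed. Removing a trend with transcript length from each library made the first of these a call for Ppargc1a (−0.52, adjusted p = 0.035 by edgeR). With the sheet position run as a term the 2 changes of Ppargc1a were −0.027 (adjusted p = 0.94 by edgeR) and 0.083 (adjusted p = 0.856), and among the earliest positions alone −0.29 and 0.32. With total counts the first was 0.40, or −0.35 relative to the median of all genes, so the direction for Ppargc1a was not stable.

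Ppargc1b (ENSMUSG00000033871, chromosome 18, 61298136 to 61400431, minus strand) encodes PGC-1 beta, a related coactivator of basal mitochondrial genes. It measured 4.10, 3.68, 5.27 and 4.10 CPM in vehicle ad libitum libraries 1 to 4 and 2.53, 3.08, 2.68 and 2.04 CPM in FAN ad libitum libraries 6, 7, 10 and 12, without overlap. It fell with FAN by 0.73 ± 0.24 on the log2 scale under ad libitum feeding (adjusted p = 0.0148 by edgeR). Under time-restricted feeding the change was −0.79 ± 0.25 (adjusted p = 0.0167 by edgeR), with FAN libraries at 1.71 to 3.90 CPM and vehicle libraries at 3.09 to 5.71 CPM, which overlapped. Time-restricted feeding gave a log2 difference of −0.05 (−0.57 to 0.48) in FAN. The Ppargc1b calls were not stable: in an edgeR fit with the sheet position run as a term, adjusted p was 0.0934 and 0.166, and among the earliest positions alone it was 0.219 and 0.0999. Leaving out vehicle ad libitum 3 gave 0.0514 for the first, and leaving out FAN time-restricted 10 or vehicle time-restricted 2 gave 0.066 and 0.0712 for the second. With total-count scaling the ad libitum change of Ppargc1b was −0.028, or −0.78 relative to the median of all genes.

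Per kilobase, Ppargc1a exceeded Ppargc1b in vehicle libraries by 5.81 to 10.4-fold under ad libitum and 4.90 to 11.9-fold under time-restricted feeding. In FAN libraries the ratios were 9.46 to 13.2 and 8.33 to 19.1. All 4 ranges overlapped with those of their comparison groups.

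Esrra (ENSMUSG00000024955, chromosome 19, 6910977 to 6921813, minus strand) encodes ERR alpha, a receptor on promoters of oxidative metabolism. It measured 82.0, 77.6, 79.3 and 99.6 CPM in vehicle ad libitum libraries 1 to 4 and 81.7, 86.3, 82.5 and 57.6 CPM in vehicle time-restricted libraries 1 to 4. It measured 31.3, 38.9, 37.1 and 33.0 CPM in FAN ad libitum libraries 6, 7, 10 and 12 and 52.3, 48.0, 46.9 and 47.4 CPM in FAN time-restricted libraries 6, 10, 11 and 12. As for Hnf4a, the FAN ad libitum libraries were lowest, the FAN time-restricted libraries intermediate and the vehicle libraries highest, with no overlap. Esrra fell to 0.414 times its vehicle level under ad libitum feeding (log2 change −1.27 ± 0.13, adjusted p = 1.36e-07 by edgeR) and to 0.631 times under time-restricted feeding (−0.67 ± 0.13, adjusted p = 0.000402 by edgeR). Within FAN it was 1.39-fold higher under time-restricted feeding (0.47 ± 0.13, adjusted p = 0.00886 by edgeR). With total-count scaling that difference was −0.17 (adjusted p = 0.239 by edgeR), or 0.49 relative to the median of all genes, against 0.50 with TMM. Among the latest sheet positions alone, 2 against 3 libraries, Esrra gave 0.44 (adjusted p = 0.0505 by edgeR). The difference of its FAN effects between regimens was 0.61 ± 0.18 (adjusted p = 0.0403 by edgeR), a call kept in 5 of 16 fits that left out 1 library, with adjusted p between 0.0325 and 0.0959. It was also lost with no filter on low counts (0.58, adjusted p = 0.0949 by edgeR) and among the earliest positions alone (0.47, adjusted p = 0.179). With total-count scaling it was 0.0051 (adjusted p = 0.987 by edgeR), or 0.58 relative to the median of all genes, as with TMM. Exons of Esrra overlap those of Trmt112 on the other strand by 73 bases, and the strand setting of the counts is not given in the sources used here.

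Esrrg (ENSMUSG00000026610, chromosome 1, 187608791 to 188214885, plus strand) encodes ERR gamma, which shares target sequences with ERR alpha. Its groups overlapped throughout, under ad libitum feeding at 27.6 to 43.1 CPM with FAN and 33.9 to 51.8 CPM with vehicle, and under time-restricted feeding at 37.2 to 59.9 CPM with FAN and 33.0 to 56.7 CPM with vehicle. Log2 changes with FAN were −0.18 (95% interval −0.58 to 0.23) and 0.06 (−0.35 to 0.47). Time-restricted feeding in FAN gave 0.41 (−0.00054 to 0.81, adjusted p = 0.119 by edgeR), and none of these passed. Removing a trend with transcript length from each library made the feeding difference of Esrrg in FAN a call (0.52, adjusted p = 0.044 by edgeR). The ratio of Esrra to Esrrg per kilobase was 1.03 to 1.69 in FAN ad libitum libraries and 2.24 to 3.41 in vehicle ad libitum libraries, without overlap. It was 1.23 to 1.78 in FAN time-restricted and 1.44 to 3.71 in vehicle time-restricted libraries, which overlapped through vehicle time-restricted 4. The ratio shows that the receptors changed unequally under ad libitum feeding, whatever the scaling.

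Nrf1 (ENSMUSG00000058440, chromosome 6, 30047988 to 30153458, plus strand) encodes nuclear respiratory factor. It measured 20.1, 18.4, 20.1 and 21.3 CPM in FAN ad libitum libraries 6, 7, 10 and 12 and 17.6, 17.7, 17.2 and 15.6 CPM in vehicle ad libitum libraries 1 to 4. The FAN libraries lay above the vehicle libraries. The log2 change of Nrf1 was 0.23 (95% interval −0.03 to 0.48, adjusted p = 0.11 by edgeR), and 0.24 (−0.02 to 0.50, adjusted p = 0.129) under time-restricted feeding, neither a call. Time-restricted feeding gave −0.23 in FAN (adjusted p = 0.162 by edgeR) and −0.24 in vehicle (adjusted p = 0.819 by edgeR). Limma with voom sample weights called the Nrf1 difference in FAN (−0.27, adjusted p = 0.027 by limma). With total-count scaling the 2 FAN changes of Nrf1 were 0.92 (adjusted p = 7.06e-06 by edgeR) and 0.34 (adjusted p = 0.0463), against a median shift of all genes of 0.76 and 0.16. Relative to those medians Nrf1 stood at 0.17 and 0.19. Once each library's trend with transcript length was taken out, the 2 changes of Nrf1 were −0.087 (adjusted p = 0.611 by edgeR) and 0.055 (adjusted p = 0.776).

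Tfam (ENSMUSG00000003923, chromosome 10, 71225464 to 71238280, minus strand) measured 28.6, 29.1, 40.8 and 38.1 CPM in FAN ad libitum libraries 6, 7, 10 and 12 and 53.4, 51.0, 51.6 and 49.7 CPM in vehicle ad libitum libraries 1 to 4. It measured 54.7, 49.1, 50.3 and 51.7 CPM in FAN time-restricted libraries 6, 10, 11 and 12 and 58.4, 49.8, 56.2 and 67.3 CPM in vehicle time-restricted libraries 1 to 4. All 4 FAN ad libitum libraries lay below the other 12. Tfam fell to 0.664 times its vehicle level under ad libitum feeding (log2 change −0.59 ± 0.12, adjusted p = 0.000423 by edgeR). Under time-restricted feeding the change was −0.17 (95% interval −0.43 to 0.09, adjusted p = 0.28 by edgeR), which did not pass. Within FAN it was 1.51-fold higher under time-restricted feeding (0.59 ± 0.12, adjusted p = 0.00143 by edgeR). The difference between the 2 FAN effects was 0.42 ± 0.17 (adjusted p = 0.142 by edgeR) and did not pass, so this fit did not show that the FAN effects on Tfam differ. With limma and voom sample weights the difference was a call (0.59, adjusted p = 0.00214 by limma). Leaving out FAN ad libitum 10 made it a call (0.52, adjusted p = 0.0456 by edgeR), as did the earliest sheet positions alone for Tfam (0.84, adjusted p = 0.0338 by edgeR).

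Both calls for Tfam were kept with RLE scaling and with mitochondrial transcripts removed before scaling, and both were lost with total counts. There the ad libitum FAN change was 0.10 (adjusted p = 0.453 by edgeR) and the feeding difference in FAN −0.045 (adjusted p = 0.748 by edgeR), which relative to the shifted median of all genes were −0.66 and 0.62, against −0.65 and 0.62 with TMM. Among the latest sheet positions alone the feeding difference of Tfam was 0.36 (adjusted p = 0.0865 by edgeR).

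Transcripts of the mitochondrial genome, whose synthesis TFAM helps to start, made up 20.3% ± 2.32 of counts in vehicle kidneys under ad libitum and 19.8% ± 1.35 under time-restricted feeding (SD, n = 4). With FAN they made up 10.3% ± 3.83 and 24.9% ± 2.40. The share differed by −10.04 points with FAN under ad libitum feeding, was 5.13 points higher with FAN under time-restricted feeding, and 14.6 points higher with time-restricted than ad libitum feeding in FAN. Each gave an exact two-sided permutation p = 0.0286, the smallest that 70 assignments allow, and 0.0381 adjusted over 4 comparisons. FAN ad libitum 6 and 7 had the lowest shares (7.29% and 6.94%) and the lowest Tfam, while 10 and 12 (14.8% and 12.1%), from the latest sheet positions, had more of both. Under time-restricted feeding every FAN library had a higher share than every vehicle library, whereas the Tfam levels of these groups overlapped.

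Genes known to depend on HNF4A or to be bound by it moved in the direction of Hnf4a in most cases. Of 30 tested, 26 fell and 1 rose with FAN under ad libitum feeding (median log2 change −2.04), where 28.6% of all genes fell and 32.1% rose. Under time-restricted feeding 18 fell and 2 rose (median −0.61), where 19% of all genes fell and 24.5% rose. In FAN 26 were higher and none lower with time-restricted feeding (median 1.49), where 17.9% of all genes were higher and 13.9% lower. Of the 30, 20 had a positive difference in FAN effects (median 1.37), where 7.76% of all genes did. Apoh, which encodes a plasma apolipoprotein, had changes of −2.93 ± 0.21 with FAN under ad libitum feeding (adjusted p = 1.81e-09 by edgeR) and 2.20 ± 0.20 with time-restricted feeding in FAN (adjusted p = 5.1e-07 by edgeR). The organic cation exporter gene Slc47a1 fell by 2.04 ± 0.14 (adjusted p = 1.89e-09 by edgeR) and the phosphate transporter family gene Slc17a3 by 2.25 ± 0.17 (adjusted p = 5.5e-09). Cubn, the gene of the endocytic receptor cubilin, was −1.26 ± 0.20 in FAN against vehicle under time-restricted feeding (adjusted p = 8.02e-05 by edgeR). Exceptions named after their values were seen were Pklr, the gene of a liver-type pyruvate kinase, which rose with FAN under both regimens (2.07 and 1.19), and Ttr, the transthyretin gene, the other that rose under time-restricted feeding (0.70).

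Nuclear genes of oxidative metabolism known as ERR and PGC-1 targets also fell more often than they rose. Of 28 tested, 23 fell and 2 rose with FAN under ad libitum feeding (median −1.10), where 28.6% of all genes fell and 32.1% rose. Under time-restricted feeding 14 fell and 1 rose with FAN (median −0.47), where 19% of all genes fell and 24.5% rose. In FAN 19 were higher and none lower under time-restricted feeding (median 0.86), where 17.9% of all genes were higher and 13.9% lower. A positive difference in FAN effects was called for 15 (median 0.72), and for 7.76% of all genes. The complex II gene Sdhb measured −1.80 ± 0.14 (adjusted p = 5.57e-09 by edgeR) and the complex III gene Uqcrfs1 −1.61 ± 0.12 (adjusted p = 3.34e-09 by edgeR) for FAN under ad libitum feeding. Sod2, the mitochondrial superoxide dismutase gene, was −1.73 ± 0.12 there (adjusted p = 1.18e-09 by edgeR) and 1.10 ± 0.12 for feeding in FAN (adjusted p = 1.84e-06 by edgeR). The genes that rose were Pdk4, a kinase gene that restrains pyruvate oxidation (1.69 and 1.85 with FAN under the 2 regimens), and Ucp2 (1.05, ad libitum), a mitochondrial carrier gene named after its value was seen. The proximal tubule marker sums given above moved with both lists, and their part in these counts was not tested.

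A list of mitochondrial DNA and RNA factors left out Tfam and included the protease gene Lonp1. Of 18 tested, 13 fell with FAN under ad libitum feeding (median −0.53). The 1 that rose was Polg, the gene of the mitochondrial DNA polymerase, named after its value was seen. Under time-restricted feeding 7 fell and none rose (median −0.29), and in FAN 7 were higher and 1, again Polg, lower with time-restricted feeding (median 0.29). Over all genes 28.6% fell with FAN under ad libitum and 19% under time-restricted feeding. With feeding in FAN 17.9% of all genes were higher and 13.9% lower. The transcription factor gene Tfb2m, whose product starts mitochondrial transcription with TFAM, changed by −0.66 ± 0.12 (adjusted p = 9.79e-05 by edgeR) with FAN under ad libitum feeding and by 0.71 ± 0.12 (adjusted p = 0.000218 by edgeR) with feeding in FAN. Polrmt, the gene of the mitochondrial RNA polymerase, was −0.78 ± 0.19 with FAN under time-restricted feeding (adjusted p = 0.0027 by edgeR). The protein-coding transcripts of the mitochondrial genome fell in 13 of 13 cases with FAN under ad libitum feeding (median −1.84) and rose in 13 of 13 with feeding in FAN (median 2.03). Under time-restricted feeding 0 of 13 fell and 0 of 13 rose with FAN (median 0.28). Their TMM-scaled sums overlapped there, at 213283 to 302627 CPM with FAN and 200246 to 253886 CPM with vehicle, whereas the shares of counts given above did not. All 13 also had a positive difference in FAN effects, where 7.76% of all genes did.

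Receptors, coregulators and factors that act with the 8 genes were called at shares near those of all genes in the comparisons of FAN with vehicle. Of 35 tested, 12 rose and 9 fell with FAN under ad libitum feeding (median 0.07), beside 32.1% and 28.6% of all genes, and 9 rose and 5 fell under time-restricted feeding (median 0.09), beside 24.5% and 19%. In FAN 3 were higher and 7 lower with time-restricted feeding (median −0.16). That is a smaller share higher and a larger share lower than the 17.9% and 13.9% of all genes. None had a difference in FAN effects that passed, beside 9.16% of all genes. Pprc1, the third member of the PGC-1 family, rose by 1.12 ± 0.19 (adjusted p = 4.74e-05 by edgeR) with FAN under ad libitum feeding and had a difference of −0.93 ± 0.19 (adjusted p = 0.00104 by edgeR), with time-restricted feeding in FAN. Nrip1, a corepressor gene of nuclear receptors, rose by 0.99 ± 0.13 (adjusted p = 1.93e-06 by edgeR). The bile acid receptor gene Nr1h4 was −1.0 ± 0.16 with FAN under ad libitum feeding (adjusted p = 3.97e-05 by edgeR) and 1.58 ± 0.17 with feeding in FAN (adjusted p = 1.89e-06 by edgeR). The Nr1h4 target Nr0b2, a receptor without a DNA-binding domain, was −1.89 ± 0.33 with FAN under ad libitum feeding. Its mean level there was low, at 0.46 CPM with FAN and 1.69 CPM with vehicle. Prkaa2, a catalytic subunit gene of AMP-activated kinase, was 0.84 ± 0.16 for feeding in FAN (adjusted p = 0.000773 by edgeR).

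**Figure D4:**
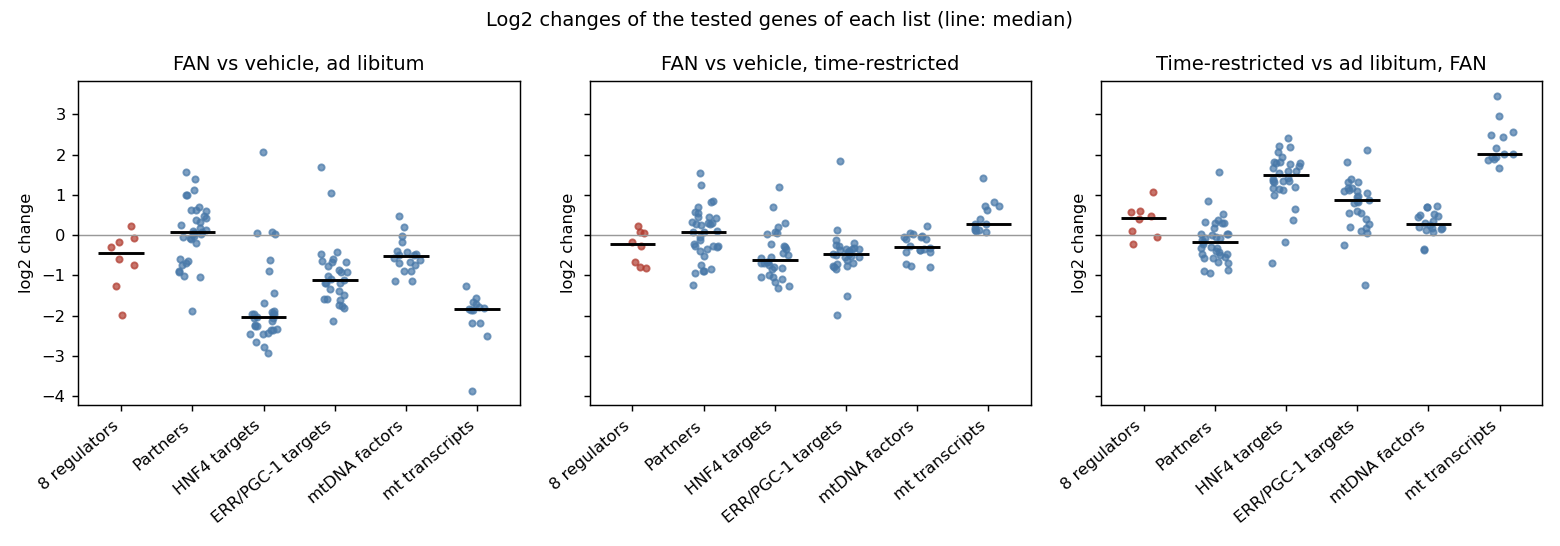
Log2 changes (vertical axis) of the tested genes of each list in 3 comparisons, 1 point per gene and a line at the list's median. The 8 regulators are in red, then come partners, HNF4 targets, ERR and PGC-1 targets, mitochondrial DNA and RNA factors and mitochondrial transcripts. HNF4 targets have medians of −2.04, −0.61 and 1.49, whereas partners lie around 0.

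Genes of tubule injury and of other cells also moved with treatment. All 10 injury and failed-repair genes were higher in FAN under both regimens, where 32.1% (ad libitum) and 24.5% (time-restricted) of all genes rose. With time-restricted feeding in FAN 1 of 10 (Lcn2) was lower, at −1.58 ± 0.38 (adjusted p = 0.00537 by edgeR), where 13.9% of all genes were lower. The summed level of 10 macrophage markers was 2942 to 3370 CPM with FAN and 219 to 462 CPM with vehicle under ad libitum feeding, and 1222 to 2266 CPM with FAN and 206 to 308 CPM with vehicle under time-restricted feeding. The 8 fibroblast and pericyte markers summed to 1072 to 2067, 139 to 283, 586 to 1189 and 128 to 212 CPM in the same order. Of other nephron segments, 3 of 8 thick ascending limb markers and 6 of 7 intercalated cell markers fell with FAN under ad libitum feeding, with medians of −0.30 and −0.91. Principal cell markers summed to 156 to 393 CPM with FAN and 443 to 568 CPM with vehicle under ad libitum feeding, without overlap, and 2 of 6 fell. Of 6 distal convoluted tubule markers 3 fell and 1 rose, with overlapping sums of 799.9 to 1691 CPM with FAN and 861 to 1271 CPM with vehicle. Over all genes 28.6% fell with FAN under ad libitum feeding, so the thick ascending limb and principal cell counts were near that share. Of 6 podocyte markers 4 rose under ad libitum and 5 under time-restricted feeding with FAN, where 32.1% and 24.5% of all genes rose. The part of these cells in the values of the 8 genes was not tested.

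The genes with the most similar profiles over the 16 libraries, by root mean square difference of centred log2 CPM among 11246 candidates, were Aldh5a1 (0.104), Aldh4a1 (0.118) and Pdzd3 (0.122) for Hnf4a, where the median gene was at 0.847. For Tfam they were Nsmce4a (0.0716), Wdr61 (0.0733) and Xrcc5 (0.0823), for Esrra Taldo1 (0.143), Wdr18 (0.145) and Dad1 (0.152), and for Nrf1 Mcrip1 (0.114), Surf6 (0.125) and Pold3 (0.128). For Esrrg they were Trpm7 (0.108), Ubr3 (0.144) and Ncoa7 (0.156), and for Ppargc1a Cacnb4 (0.170), the mineralocorticoid receptor gene Nr3c2 (0.180) and Trpm7 (0.191). For Hnf4g (Evi5 0.204, Rnft1 0.206, Zfp942 0.208) and Ppargc1b (Gm16136 0.211, Fn3krp 0.211, Tspan1 0.216) the nearest genes were farther away. Hnf4g and Ppargc1b had means under 5 CPM in every group, whereas candidates had a mean of at least 5 CPM. The part of counting error in these distances was not tested.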

How the data were processed

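TruSeq Stranded mRNA libraries were prepared from TRIzol RNA of powdered frozen kidney, per the labels' protocols. The values are raw read counts per gene as deposited by the authors, 1 table of 52338 genes. The submitters' processing notes name mm10, STAR 2.5.3a, FastQC 0.11.5 and edgeR 3.26.7, while the counting tool and strand setting are not given in the sources used here. Coordinates and exon lengths came from GENCODE on GRCm38 by Ensembl identifier (52081 matched). In both FAN groups the column numbers, taken as a set, are each 5 above the title numbers. As the names themselves do not match, these columns were given a group but no title. In R 4.3.3 with edgeR 4.0.16, genes passing filterByExpr (minimum count 10) were scaled by TMM and fitted in 1 quasi-likelihood model of 4 groups and 16 libraries. Adjusted p are Benjamini-Hochberg values over 17731 genes, with a threshold of 0.05. Scripts were tested on simulated data, with acceptance limits that were changed after the first result fell short of the recovery set for it. Log2 CPM used a prior count of 2.

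The 8 genes, the lists and the tests were chosen with earlier results of these data known. From each list up to 4 genes with the smallest p per comparison were eligible for naming (3 for the interaction), and for each of the 8 the 3 nearest profiles among genes of at least 5 CPM. Alternatives covered scaling, count filters, DESeq2 1.42.0, limma 3.58.1, sheet position, transcript length, the replicate block and leaving out each library. The earliest sheet positions are those shared by both treatments. Fits to the middle or the latest positions alone, and the block on FAN column numbers, were chosen after seeing the data. A gene of these lists is not reported here by name.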

Additional observations from a re-analysis of the deposited data

Results flagged for a closer look

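In 3 of 36 checks, each over 4 libraries of a group, 1 library stood apart, and chance gives about 1 in 20. Hnf4g in vehicle ad libitum 2 was the lowest of its group, with a gap to the next library of 0.875 of the group's range. Esrra (0.863) and Nrf1 (0.972) were both lowest in vehicle time-restricted 4, at 57.6 and 11 CPM. Without that library the time-restricted FAN effect of Esrra stayed a call, and the difference of its FAN effects was 0.49 (adjusted p = 0.0563 by edgeR).

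The FAN effect differed between feeding regimens for Hnf4a, by 1.15 on the log2 scale, and for Esrra, by 0.61, in edgeR's test of the difference. The FAN effects of both were smaller under time-restricted feeding in that fit. For Esrra the call was kept in 5 of 16 fits that left out 1 library and lost with no filter on low counts (adjusted p = 0.0949 by edgeR) and in the earliest sheet positions (0.179). With total counts the 2 FAN effects of Esrra were −0.57 and −0.56, or −1.32 and −0.72 relative to the median of all genes.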

How the results depend on the processing

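Under the alternatives run, the falls of Hnf4a and Esrra with FAN kept their direction and call in 27 of 27 settings under each regimen, and the rise of Hnf4a with time-restricted feeding in FAN in 29 of 29. Scaling by total counts, which moves the median of all genes, changed most. It turned the FAN effect under ad libitum feeding to 0.61 for Hnf4g, 0.52 for Esrrg, 0.10 for Tfam, 0.036 for Tfb2m, 0.14 for Twnk and 0.081 for Mterf4. It turned the feeding difference in FAN to −0.54 for Ppargc1a, −0.17 for Esrra, −0.045 for Tfam, −0.33 for Sirt1, −0.12 for Top1mt, −0.19 for Lonp1 (−0.22 in the earliest sheet positions), −0.58 for Polrmt, −0.52 for Twnk and −0.13 for Mterf4. It turned the difference of FAN effects to −0.58 for Nrf1, −0.45 for Gabpb1 and −0.032 for Tfb2m. Over all genes it gave 10823 of 12893 calls higher with FAN under ad libitum feeding (5691 of 10770 with TMM), 990 of 11502 higher for feeding in FAN (3180 of 5639) and 504 of 6631 for the difference of FAN effects (1376 of 1625). A further 175 of 6786 values, 62 of them of the 8 genes, changed sign where neither value was called, and these were not counted as turned.

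The number of the 8 genes called for the difference of FAN effects was 2 (Hnf4a, Esrra), and 1 with total-count scaling (Nrf1, lower), no filter on low counts (Hnf4a) or the earliest positions alone (Tfam), and 1 to 3 when single libraries were left out. With voom sample weights the number for the difference was 3 (Hnf4a, Esrra, Tfam). For feeding in FAN the number was 3, 5 with voom sample weights (Hnf4g and Nrf1 added) and 1 in the latest positions alone. As coding mitochondrial counts per 100 nuclear counts, the mitochondrial differences were 8.11 for FAN under time-restricted feeding and 21.2 for feeding in FAN. Over all genes voom called 9304 for feeding in FAN and 5264 for the difference, the latest positions alone 2129 for feeding in FAN, and sheet position as a covariate 4974 for FAN under time-restricted feeding (7719 without it). For feeding in vehicle mice, where edgeR called 0 genes, the settings that called any called 1 to 57. The cause of these changes was not tested.

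Vehicle libraries of the same replicate number had correlations of 0.18, 0.12, −0.15 and −0.01, within the −0.28 to 0.32 of different numbers. So few pairs cannot settle whether the samples were paired. The replicate block called 0 of the 8 genes for feeding in vehicle mice. The 3 column numbers that both FAN groups hold gave correlations of −0.13, −0.05 and −0.25 for 6, 10 and 12, beside −0.16 to 0.26 for different numbers. A replicate block on column numbers called 1 of the 8 (Hnf4a) for feeding in FAN, with 2336 of all genes, and 1 (Hnf4a) for the difference of FAN effects, with 877 of all genes. No paired analysis was possible for FAN against vehicle because these columns share no number.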
